A study of Mus musculus with 14 samples.

Results

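The nuclear genes for the subunits of respiratory complexes II, III, IV and V were followed in the superior mesenteric artery (SMA) of Drp1 KO and WT mice, under normal conditions and after ischemia. They were chosen by symbol in the count table, as Sdha to Sdhd for complex II and as the symbols that start with Uqcr for complex III, with Cox4 to Cox8 for complex IV and with Atp5 for complex V (without Atp5s and Atp5sl). These were 54 of the 46095 symbols in the table, with 4 in complex II, 9 in complex III, 18 in complex IV and 23 in complex V. The low-count filter was passed by 45 of the 54 members, against 17693 of all symbols. Of the 9 that did not pass, 7 were pseudogenes and the others were Cox7b2 and Cox8c, isoforms of complex IV that are known from testis. The 45 tested members include 2 pseudogenes of the ATP synthase g subunit, Atp5l-ps1 and Atp5l2-ps.

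RNA was sequenced from the SMA of 14 mice of the C57BL/6 strain at 8 weeks of age. The groups were WT mice (Drp1 +/+ in the labels) under normal conditions (n = 3), Drp1 KO mice under normal conditions (n = 4), WT mice after ischemia (n = 3) and Drp1 KO mice after ischemia (n = 4). For the KO mice, the labels give Drp1 flox/+ and name no Cre, the design text speaks of knockdown, and the paper's methods describe a heterozygous frameshift made in exon 2 with CRISPR/Cas9, so KO is used here as the name of the group. Ischemia followed bleeding through the femoral artery, and its duration differs between the labels (2 h) and the paper, where the longer time is given.

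The tissue was checked against its markers. Smooth muscle genes were high in every mouse, with a summed level over 8 markers of 7881 to 39418 CPM (counts relative to the library size as scaled by TMM), although Tagln, a usual smooth muscle marker, was at only 0.675 to 5.78 CPM. Gut epithelium and pancreas markers each summed to less than 5 CPM in every mouse. Brown adipocyte markers were present in all mice, and the heart muscle gene Myh6 exceeded 20 CPM in 4 libraries. Dnm1l, the gene for Drp1, was at 63.8, 65.7 and 90.9 CPM in WT mice and 54.8, 60.8, 57.9 and 62.2 CPM in KO mice under normal conditions, where every KO mouse lay below every WT mouse. After ischemia it was at 81.0, 63.1 and 80.9 CPM in WT mice and 72.6, 69.0, 76.0 and 59.99 CPM in KO mice, so that the groups overlapped. The log2 fold changes of Dnm1l between KO and WT mice were −0.32 (standard error 0.16, FDR = 0.974 in edgeR) and −0.11 (standard error 0.16, FDR = 0.872 in edgeR). Total counts ran from 25612646 to 40255851 per mouse. Of the libraries, 13 came from lane 8, and 1 (WT, normal conditions, replicate 3) came from lane 1, so lane and mouse cannot be told apart there.

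Complexes II to V sit in the inner mitochondrial membrane. Complex II (succinate dehydrogenase) passes electrons from succinate to ubiquinone, complex III (cytochrome bc1) passes them on to cytochrome c and complex IV (cytochrome c oxidase) hands them to oxygen, and complex V (ATP synthase) uses the proton gradient that results to make ATP. All subunits of complex II are encoded in the nucleus, whereas complexes III, IV and V combine nuclear subunits with a few from mitochondrial DNA. Many of the nuclear genes are known targets of NRF1, of the ETS factor GABP and of the estrogen-related receptors with their coactivator PGC-1alpha. Mitochondria are abundant in brown adipocytes and heart muscle and much sparser in arterial smooth muscle, and several complex IV subunits have a separate isoform in striated muscle and brown fat.

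Because the members are known to share regulators, their promoters were read from RefSeq sequence on GRCm38.p6, 250 bases before to 50 after each start. Promoters were matched for 34 of the 43 tested members that are not pseudogenes. The letters GCGCATGCGC, the core of the NRF1 site, were found in Atp5g2, Atp5k, Cox6a1 and Uqcrc1, 4 of the 34 (11.8%), against 1.07% of all 27025 genes with a promoter. CCGGAAG, the core of ETS sites such as that of GABP, was found in 12 of the 34 (35.3%), against 9.93% of all genes. TCAAGGTCA, the site of the estrogen-related receptors, was found in Atp5g3 and Sdhd only (5.88% against 0.466%), and AAGATGGC, the core of the YY1 site, in 3 members (8.82% against 3.19%). All motifs were searched on both strands, and none of them lies within another. A match only says that these letters are present. All genes with a promoter include genes that did not pass the low-count filter here, so these shares do not set the members against other expressed genes.

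Shown here are 3 promoters, each as the 250 bases before the start, 5′ to 3′ on the gene's strand, with the NRF1 and ETS letters in capitals. Cox6a1 is the complex IV member with the highest level per kb and holds both motifs, Atp5k holds the NRF1 core (its ETS match lies after the start), and Cox7a1 is an isoform of brown fat and striated muscle that holds none of the searched motifs and was among the most variable members.
Cox6a1 (chr5:115348959-115349208, minus strand): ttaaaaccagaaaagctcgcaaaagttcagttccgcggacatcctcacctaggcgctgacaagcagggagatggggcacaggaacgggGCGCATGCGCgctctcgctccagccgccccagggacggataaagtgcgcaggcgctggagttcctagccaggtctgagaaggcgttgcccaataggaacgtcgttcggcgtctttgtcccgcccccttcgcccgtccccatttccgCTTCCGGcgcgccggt
Atp5k (chr5:108434400-108434649, minus strand): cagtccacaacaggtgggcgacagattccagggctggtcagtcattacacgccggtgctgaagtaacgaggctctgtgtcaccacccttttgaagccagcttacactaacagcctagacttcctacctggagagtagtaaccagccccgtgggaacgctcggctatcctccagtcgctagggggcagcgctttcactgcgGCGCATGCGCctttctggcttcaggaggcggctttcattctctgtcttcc
Cox7a1 (chr7:30183921-30184170, plus strand): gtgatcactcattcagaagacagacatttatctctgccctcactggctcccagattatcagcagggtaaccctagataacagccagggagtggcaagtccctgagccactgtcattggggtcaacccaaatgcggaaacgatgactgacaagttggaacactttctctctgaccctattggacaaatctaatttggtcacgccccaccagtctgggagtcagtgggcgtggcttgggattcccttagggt

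Levels between genes are compared as CPM per kb of transcript, averaged over the 14 mice. In complex II, Sdha, the flavoprotein that oxidises succinate, was highest at 264 CPM per kb, and Sdhc, a membrane anchor, was lowest at 57.6. In complex III the highest was Uqcr10, a small accessory subunit, at 426 CPM per kb. The lowest was Uqcrc1, a core protein of the complex, at 5.58 CPM per kb, far below the complex's median of 249.97. In complex IV, Cox6a1 was highest at 975 CPM per kb and Cox6b2, a testis isoform, lowest at 4.45. Complex V was led by Atp5b, the catalytic beta subunit, at 1000.1 CPM per kb, and its lowest tested member was the pseudogene Atp5l-ps1 at 2.13. Reads of pseudogenes can belong to their parent genes, and exons of 13 members overlap another gene, mostly on the opposite strand, so these values carry that uncertainty. Of the genes described in full below, none but Cox6a2 (with Itgad), Atp5g2 (with Mir688), Cox4i1 (with Emc8), Cox5a (with Gm26631), Atp5a1 (with Haus1), Atp5f1 (with Wdr77 and Gm42890), Uqcrb (with Gm10767) and Uqcrc2 (with Pdzd9) overlaps another gene.

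The members differed more between mice of one group than genes in general. The median SD of log2 CPM within groups was 0.852 over the 45 members and 0.540 over all tested genes, and by complex it was 0.992 (II), 0.936 (III), 0.834 (IV) and 0.734 (V). Together the members took from 0.320% to 2.11% of a library's counts, and both extremes were WT mice under normal conditions. The summed level of all members was 3156, 24419 and 11110 CPM in these 3 WT mice, a range that held all other groups. It was 6738 to 18973 CPM in KO mice under normal conditions, 4586 to 7605 CPM in WT mice after ischemia and 5660 to 16833 CPM in KO mice after ischemia.

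The same 2 libraries set the range for most members. Normal WT replicate 2 was the highest of the 14 mice for 37 of the 45 members (18.5% of all tested genes), and replicate 1 was the lowest for 36 of 45 (22.7% of all tested genes). All 4 KO mice lay inside the range of the 3 WT mice under normal conditions for 38 members (33.7% of all genes). Over the 42 members other than pseudogenes and Cox6a2, the highest mouse exceeded the lowest by a median of 7.09-fold. The smallest ratio was that of Cox7a2l, at 2.05-fold, and the largest were those of Cox8b (41.4-fold) and Cox7a1 (37.7-fold), the brown fat and striated muscle isoforms.

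**Figure D1:**
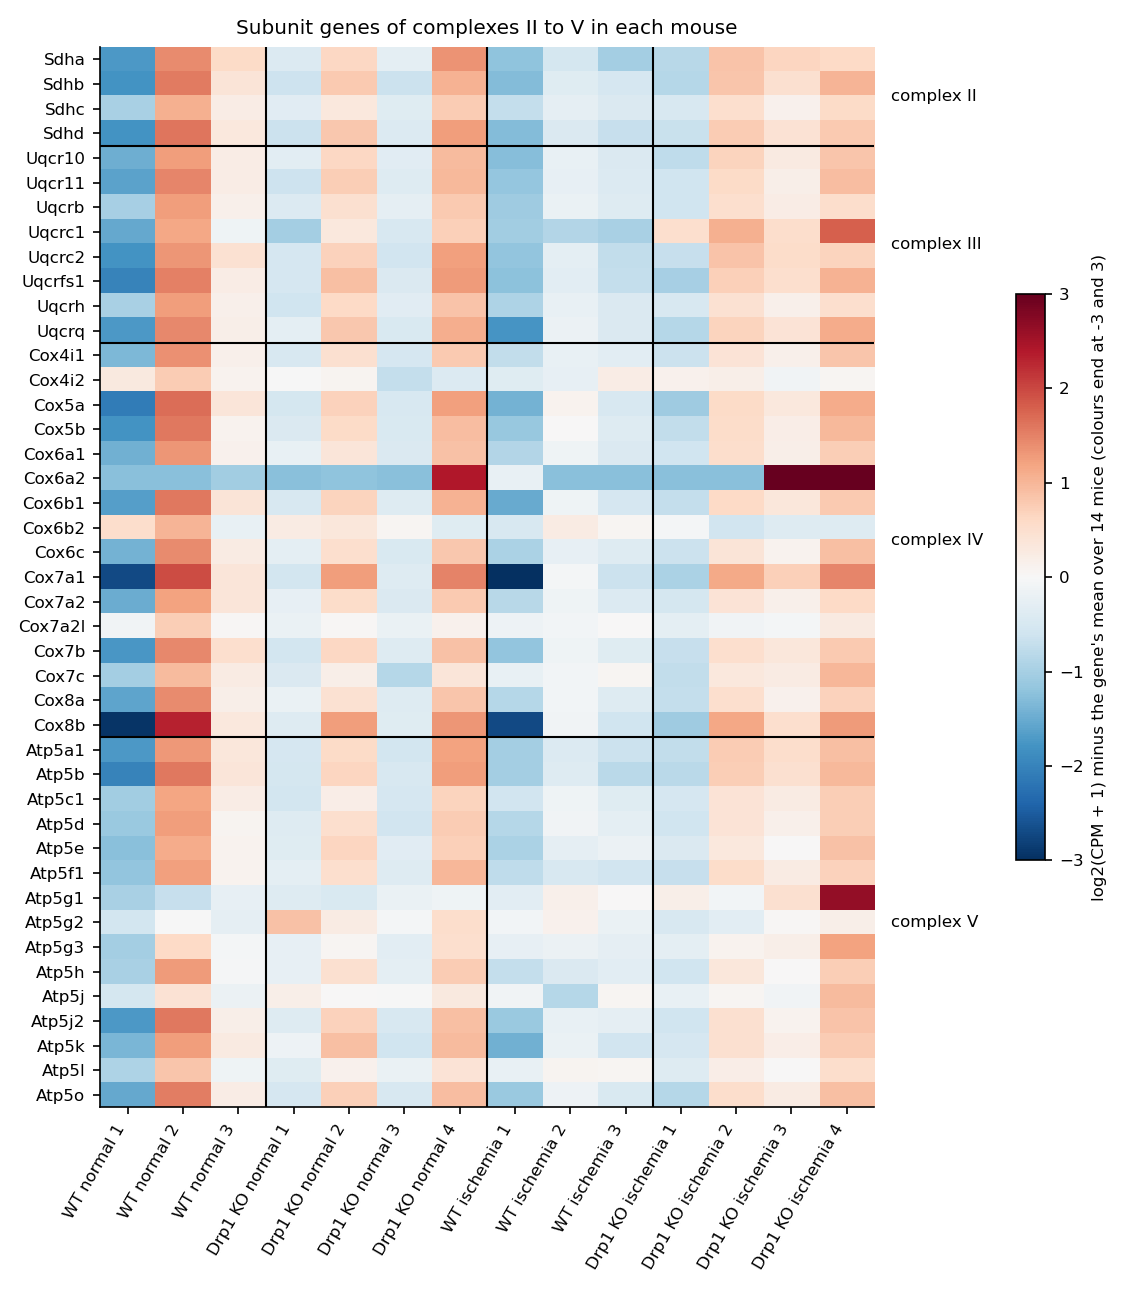
Level of each tested subunit gene (rows, by complex; pseudogenes left out) in each of the 14 mice (columns, by group), as log2(CPM + 1) minus the gene's mean over the mice. Most genes are lowest in replicate 1 and highest in replicate 2 of the normal WT mice (36 and 37 of the 45 tested members), while Cox6a2 and Atp5g1 are high in single libraries.

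Taken as lists, markers of adipocytes, brown and general, moved with the members across the mice. The 6 brown adipocyte markers used for a level were Ucp1, Cidea, Elovl3, Dio2, Slc27a2 and Cpn2. The 6 mice with the highest marker level were also the 6 with the highest mean log2 CPM of the members, and 2 of the 3 lowest mice were shared. Ucp1, the uncoupling protein of brown fat, was at 40.2, 3948 and 639 CPM in WT mice and 557, 2784, 1149 and 4072 CPM in KO mice under normal conditions. After ischemia it was at 66.3, 776 and 304 CPM in WT mice and 604, 3272, 2640 and 2921 CPM in KO mice. The sum over the whole list of 8 brown adipocyte markers was 174 to 6693 CPM, 1139 to 6274 CPM, 306 to 1519 CPM and 1049 to 5008 CPM in the same order of groups. The sum over 8 general adipocyte markers, such as Adipoq, was 1510 to 19016 CPM, 4361 to 12086 CPM, 2263 to 4171 CPM and 2465 to 6912 CPM, and its lowest and highest mice were also replicates 1 and 2 of the normal WT group. The median log2 fold changes of this general list were 0.89 for KO minus WT after ischemia, −1.49 for ischemia minus normal in WT mice and 1.20 for the interaction, beside 1.75, −2.01 and 2.00 for the brown list. Single general markers did not all follow the median. For KO minus WT after ischemia, the smallest p was that of Lep, at −2.12 (standard error 1.11, FDR = 0.715 in edgeR). In that comparison 1 of the 8 was lower in every KO mouse (5.97% of all genes) and 0 were higher in every KO mouse (4.74%). The parts of the lists in the members' values were not separated. Zic1, a marker of classical brown fat, was at 0 in 13 of the 14 libraries. In whole tissue, fewer cells of a type and less RNA per cell cannot be told apart.

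**Figure D2:**
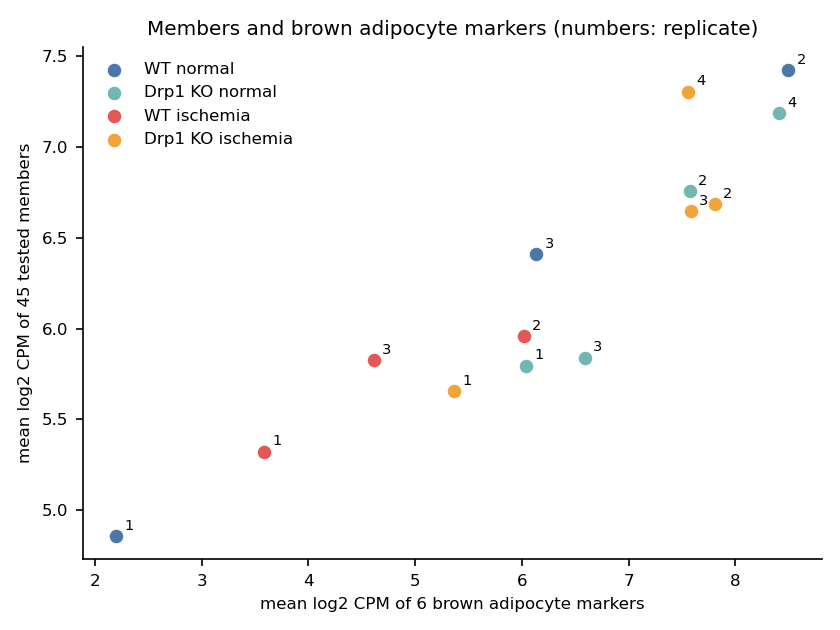
Mean log2 CPM of the 45 tested members against the mean log2 CPM of 6 brown adipocyte markers, 1 point per mouse, coloured by group and numbered by replicate. The points run from WT normal replicate 1 at the lower left (2.20 and 4.86) to WT normal replicate 2 at the upper right (8.50 and 7.42), and KO ischemia replicate 1 (5.65 for the members) lies among the 3 WT mice after ischemia (5.32 to 5.96).

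The first comparison asked whether KO mice differed from WT mice under normal conditions. No member was called in edgeR's quasi-likelihood test (FDR under 0.05, with a fold change of more than 1.5), and percent called over all genes was 0 as well. The median log2 fold change of the members was −0.16 (all genes −0.02), with 9 positive and 36 negative values. Positive values made up 47.6% of all genes. An unadjusted p under 0.05 was found for 2 members of 45, against 5.25% of all genes.

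Both belonged to minor isoforms. Cox4i2, the isoform of subunit 4 that lung and hypoxic cells are known to use, was at 4.25, 6.25 and 3.62 CPM in WT mice and 3.22, 3.56, 1.60 and 2.24 CPM in KO mice. Every KO mouse lay below every WT mouse, which held for 1 member in this direction and for 1.9% of all genes. Its log2 fold change was −0.83 (standard error 0.35, p = 0.0334, FDR = 0.933 in edgeR; exact permutation test, two-sided, p = 0.0571). This permutation test was given only for named members whose groups do not overlap, so its low p follows from that choice. Atp5g2, 1 of 3 genes for the c subunit of ATP synthase, was at 0.708, 1.46 and 1.06 CPM in WT mice and 3.58, 1.97, 1.38 and 2.61 CPM in KO mice, a log2 fold change of 1.15 (standard error 0.49, FDR = 0.933 in edgeR). Its counts were 24 to 41 in the WT mice and 61 to 127 in the KO mice.

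The core nuclear subunits had values smaller than their standard errors. Log2 fold changes were −0.08 for Sdha, −0.26 for Sdhb (the iron-sulfur subunit of complex II), 0.02 for Uqcrfs1 (the Rieske iron-sulfur protein of complex III), −0.27 for Cox4i1, −0.22 for Cox5a, −0.05 for Atp5a1 and −0.16 for Atp5b. Their standard errors were 0.52 to 0.71. In complex III the smallest p belonged to Uqcrb, a subunit near the ubiquinone site, with −0.19 (standard error 0.46). The median of the members was 0.68 without replicate 2 and −0.57 without replicate 1 of the WT mice, so its sign depended on a single WT library. The sign also depended on the processing, as the median ran from −0.59 to 0.16 over the 12 alternatives that did not leave out single mice. The group means of the members' mean log2 CPM were 6.23 in WT and 6.39 in KO mice. With the brown adipocyte marker level as a covariate, an alternative added after the data were seen, the median was −0.59 and 28 of 45 members were lower in KO mice at an unadjusted p under 0.05, against 5.67% of all genes in this direction. The smallest FDR among the members was then 0.238.

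The second comparison set KO against WT mice after ischemia. No member passed the limits, as was true of all genes (percent called 0), and the smallest FDR of a member was 0.715 in edgeR. The values nevertheless leaned to 1 side, with a positive log2 fold change in 43 of 45 members, against 47.1% of all genes. The median was 0.83 over the members and −0.03 over all genes. By complex the medians were 1.20 (II), 1.05 (III), 0.77 (IV) and 0.79 (V), and members share the variation of the mice, so these counts are not independent evidence.

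Most of the overlap between the ischemic groups came from 1 KO mouse. In 35 of the 45 members, KO mice 2, 3 and 4 lay above the highest WT mouse while KO mouse 1 did not, against 8.7% of all genes. This arrangement was picked after the values were seen and has no test. It held for 4 of 4 members of complex II, 7 of 8 of complex III, 12 of 16 of complex IV and 12 of 17 of complex V. KO mouse 1 lay within the WT range for 37 members (56.4% of all genes). Its brown adipocyte marker level, 5.37 on the log2 scale, also lay within that of the WT mice (3.59 to 6.02), whereas the other 3 KO mice were at 7.56 to 7.81.

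Sdha shows the pattern of the group. It was at 269.7, 434 and 306 CPM in WT mice and 352, 1133, 982 and 943 CPM in KO mice after ischemia. KO mouse 1 lay inside the WT range and the other 3 at more than 2 times the highest WT mouse. The log2 fold change was 1.34 (standard error 0.63, FDR = 0.715 in edgeR). For Atp5b the levels were 763, 1178 and 884 CPM in WT mice and 887, 2603, 2145 and 3050 CPM in KO mice, with a log2 fold change of 1.21 (standard error 0.68, FDR = 0.715 in edgeR). Sdhb, Uqcrfs1 and Atp5a1 had log2 fold changes of 1.20, 1.21 and 1.16, and those of Cox4i1, a constant subunit of complex IV, and Cox5a were 0.69 and 0.90. The only negative members were Cox6b2 (−0.47) and Atp5g2 (−0.13), both at low levels, and Cox7a2l (0.05) was the nearest to 0 of the positive ones.

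Groups did not overlap for 2 members, Uqcrc1 and the pseudogene Atp5l2-ps, both higher in KO mice (4.44% of the 45, against 4.74% of all genes). The share of such members was thus near that of all genes. An unadjusted p under 0.05 was found for 3 members, Uqcrc1, Atp5g1 and Cox6a2, all higher in KO mice, against 2.88% of all genes in this direction.

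With the brown adipocyte marker level as a covariate, the median of the members after ischemia was −0.25 and 39 of 45 were negative. Without the 4 libraries in which Myh6 was at 20 CPM or more, it was 0.34 over 44 members. After ischemia this leaves WT mice 2 and 3 and KO mice 1 and 2, and KO mouse 1 lay within the WT range for 37 members. The weight of KO mouse 1 and the loss of the Myh6 libraries cannot be told apart there. Leaving out single mice gave medians between 0.60 (without KO mouse 4) and 1.05 (without KO mouse 1).

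**Figure D3:**
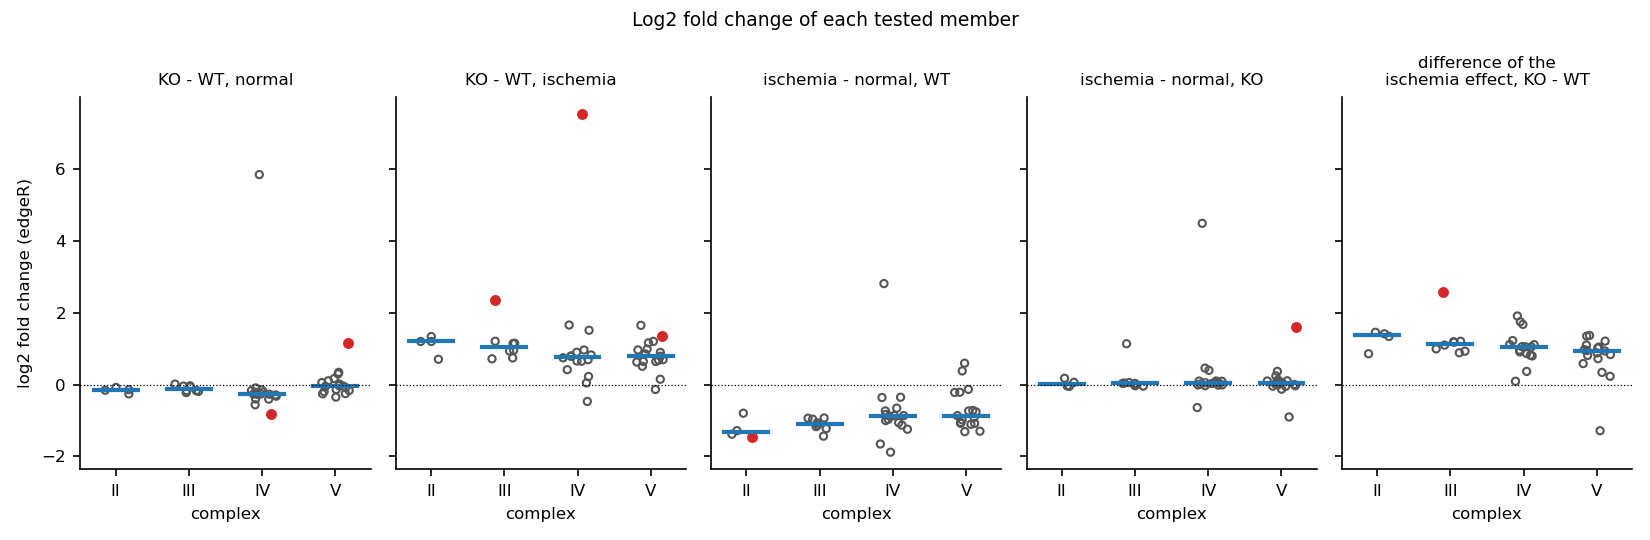
Log2 fold change of each tested member (points) by complex in the 5 comparisons, from edgeR, with the median of each complex as a bar and members at an unadjusted p under 0.05 filled in red. Most points lie above 0 for KO minus WT after ischemia (43 of 45) and below 0 for ischemia minus normal in WT mice (42 of 45), and no point is past the FDR limit.

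After ischemia, Uqcrc1 had the largest difference between KO and WT mice of all members but Cox6a2. It was at 1.83, 17.4 and 6.45 CPM in WT mice and 2.99, 9.12, 4.81 and 12.4 CPM in KO mice under normal conditions. After ischemia it was at 2.95, 3.402 and 3.12 CPM in WT mice and 10.5, 16.0, 10.8 and 27.3 CPM in KO mice, from 97 to 113 counts and 353 to 898 counts. The gene lies on the plus strand of chr9:108936633-108949623 (GRCm38). The lowest KO mouse was thus above the highest WT mouse by a wide margin. The log2 fold change was 2.35 (standard error 0.67, p = 0.00368, FDR = 0.715 in edgeR; exact permutation test, two-sided, p = 0.0286, the smallest that 3 against 4 mice allow). That permutation p follows from groups that do not overlap and is not separate support. The FDR was 0.0598 in DESeq2. The mean level of Uqcrc1 was only 5.58 CPM per kb, against 130 for Uqcrc2. Whether reads of Uqcrc1 were lost in counting was not tested, as the counting settings are not given.

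For Uqcrc2, the other core protein, the groups overlapped, with 90.0, 167 and 123 CPM in WT and 126, 372, 298 and 325 CPM in KO mice after ischemia. Uqcrc1 made up 2.28% to 3.62% of the summed CPM per kb of the pair in WT mice and 3.99% to 8.80% in KO mice after ischemia. Under normal conditions its share was 2.57% to 3.73% in WT mice and 2.34% to 3.86% in KO mice, so the ischemic KO mice lay above all other mice. This ratio was chosen after the values of Uqcrc1 were seen, and it has no test. KO mouse 1, in which most members lay within the WT range, had a share of 8.70%. The log2 fold change of Uqcrc1 was 1.98 to 2.51 with single mice left out, 2.02 without the 4 libraries with Myh6, and 1.15 (FDR = 0.677 in edgeR) with the brown adipocyte covariate.

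**Figure D4:**
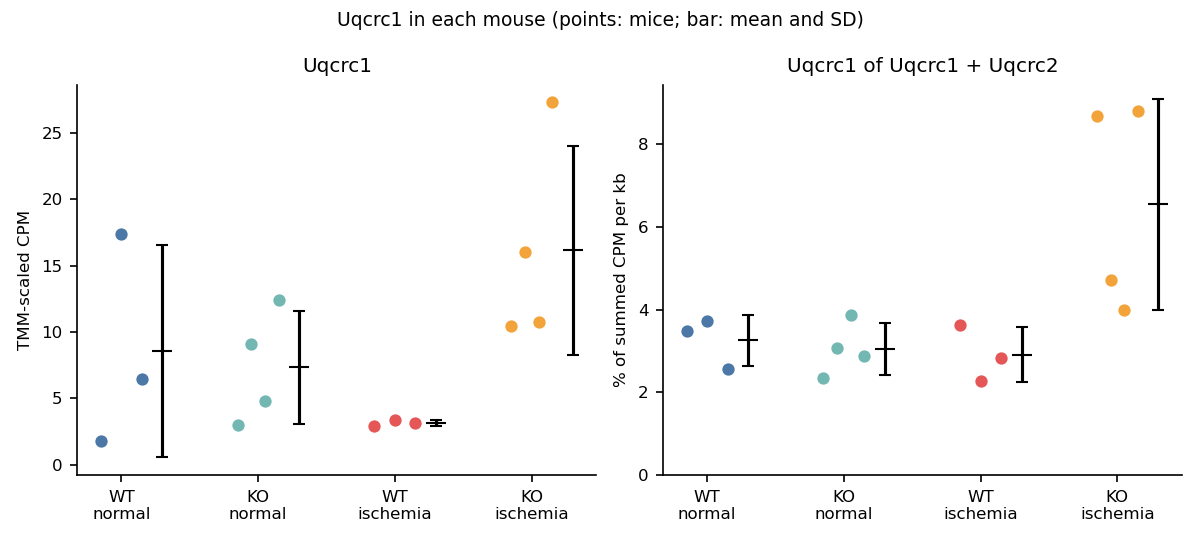
Uqcrc1 in each mouse by group, as TMM-scaled CPM (left) and as its share of the summed CPM per kb of Uqcrc1 and Uqcrc2 (right), with points for mice and bars for the mean and SD. In both panels the 4 KO mice after ischemia lie above the 3 WT mice after ischemia, and on the right they lie above all other mice (3.99% to 8.80% against at most 3.86%).

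Cox6a2 and Atp5g1 were highest in libraries that held the heart muscle gene Myh6. Cox6a2, the heart and skeletal muscle isoform of subunit 6a (chr7:128205435-128206387 on GRCm38, minus strand), was at 0 to 0.151 CPM in 10 of the 14 libraries. The others were KO mouse 4 under normal conditions (11.5 CPM), WT mouse 1 after ischemia (1.03 CPM) and KO mice 3 and 4 after ischemia (25.8 and 232 CPM). Myh6 was at 203, 25.4, 518 and 3529 CPM in these 4 libraries and at no more than 3.09 CPM in the other 10. The summed level of the 10 striated muscle markers was 17.5 to 19.1 CPM in WT and 10.8 to 402 CPM in KO mice under normal conditions, and 10.8 to 60.8 CPM in WT and 14.6 to 5553 CPM in KO mice after ischemia.

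Atp5g1, a c subunit gene (chr11:96068852-96075670 on GRCm38, minus strand), was at 14.7, 20.5 and 18.5 CPM in WT and 20.9, 17.4, 26.3 and 119 CPM in KO mice after ischemia. The high value belonged to the library with the most Myh6, and the groups overlapped. Its log2 fold change between them was 1.36 (FDR = 0.715 in edgeR). It was 0.26 without KO mouse 4 and −0.03 without the 4 libraries with Myh6. For Cox6a2 the fitted change of 7.53 rests on single libraries and the gene did not pass the filter without them.

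The isoform pairs of complex IV were compared within each mouse. Cox7a1 made up 27.2% to 61.5% of the summed CPM per kb of Cox7a1 and Cox7a2 in WT mice under normal conditions. The share was 43.5% to 60.9% in KO mice under normal conditions, 15.01% to 50.04% in WT mice after ischemia and 40.9% to 63.6% in KO mice after ischemia. Cox8b took 17.4% to 51.8%, 33.6% to 50.3%, 13.2% to 36.3% and 30.9% to 47.7% of its pair with Cox8a in the same order. For both pairs, every group overlapped every other.

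The lowest shares belonged to WT mouse 1 after ischemia and WT mouse 1 under normal conditions, the 2 mice with the lowest brown adipocyte marker level. Cox6a2 reached 19.2% of its pair with Cox6a1 in KO mouse 4 after ischemia and 3.73% in KO mouse 3, and at most 1.05% in any other mouse. Cox4i2 (0.268% to 2.21%) and Cox6b2 (0.377% to 5.53%) stayed minor isoforms in every mouse. Among the c subunit genes of ATP synthase, which code for the same mature protein, Atp5g3 accounted for 93.0% to 98.2% per kb. This share depends on the length of 4715 bases used for Atp5g1, and without division by length it was 68.7% to 93.3%, with Atp5g1 at 30.9% in KO mouse 4 after ischemia.

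**Figure D5:**
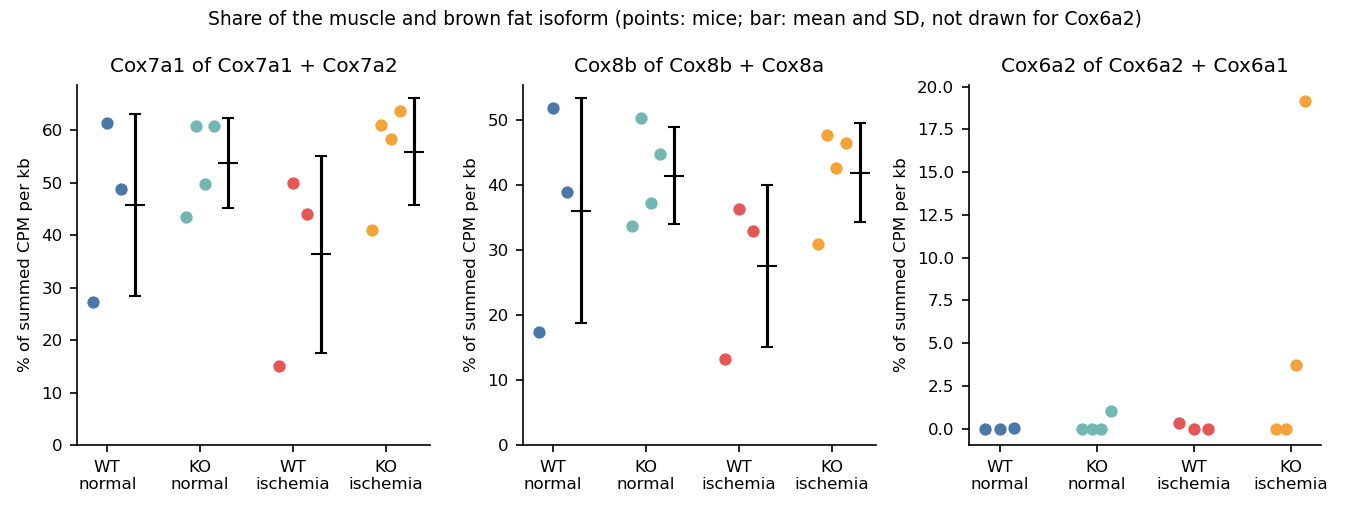
Share of Cox7a1, Cox8b and Cox6a2 in the summed CPM per kb of each isoform pair, 1 point per mouse by group, with the mean and SD beside the points for Cox7a1 and Cox8b. The lowest points for Cox7a1 (15.01%) and Cox8b (13.2%) are WT ischemia replicate 1, and Cox6a2 is above 3% in 2 KO mice after ischemia only.

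The third comparison set ischemia against normal conditions in WT mice. No member was called, against 0.0113% of all genes. The log2 fold change was negative for 42 of 45 members, with a median of −0.96, while 49.4% of all genes were positive and their median was −0.01. By complex the medians were −1.33 (II), −1.09 (III), −0.87 (IV) and −0.86 (V). No member had groups that did not overlap, against 11% of all genes in either direction, and for 33 members all 3 ischemic mice lay inside the range of the normal WT mice (32.2% of all genes).

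Only Sdha had an unadjusted p under 0.05 (log2 fold change −1.46, standard error 0.66, FDR = 0.520 in edgeR), against 5.47% of all genes lower. Under normal conditions it was at 189, 1662 and 934 CPM, so that replicate 1 was below all 3 ischemic WT mice. Cox8b (−1.88) and Cox7a1 (−1.65) had the largest negative values of the members, followed by Sdha and Uqcrc1 (−1.43). In complexes IV and V the smallest p belonged to Cox6b1 (−1.24, standard error 0.67) and Atp5f1 (−0.98, standard error 0.53), a subunit of the complex IV dimer contact and one of the peripheral stalk of ATP synthase. Without replicate 2 of the normal WT mice the median of the members was −0.16, and without replicate 1 it was −1.42. With the brown adipocyte covariate it was −0.18.

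The fourth comparison set ischemia against normal conditions in KO mice. No member was called in edgeR, against 0.294% of all genes, and the median log2 fold change was 0.04 (all genes −0.05), with 29 positive and 16 negative values (45.9% of all genes were positive). The medians by complex ran from 0.01 to 0.06. Groups did not overlap for 1 member, Atp5g1, against 5.49% of all genes in this direction, and it was also the only member with an unadjusted p under 0.05 (5.75% of all genes higher).

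Atp5g1 was at 13.9, 13.3, 16.0 and 16.8 CPM under normal conditions and, as above, at 17.4 to 119 CPM after ischemia. The groups were separated by less than 1 CPM at their nearest mice. Its log2 fold change was 1.61 (standard error 0.50, p = 0.00658, FDR = 0.195 in edgeR; exact permutation test, two-sided, p = 0.0286). The permutation p again follows from groups that do not overlap. In DESeq2 it was called, as the only member, with an FDR of 0.0378, where 3.46% of all genes were called. The log2 fold change was 0.52 without KO mouse 4 after ischemia and 0.41 without the libraries with Myh6. Uqcrc1 had a log2 fold change of 1.14 (standard error 0.58, FDR = 0.423 in edgeR) in this comparison.

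The difference of the ischemia effect between KO and WT mice was tested as an interaction, which uses all 4 groups and so shares its mice with the comparisons above. No member was called (percent called over all genes 0, smallest member FDR 0.946 in edgeR). The estimate was positive for 44 of 45 members, against 48.9% of all genes, with a median of 1.02. Uqcrc1 had the largest value, 2.57 (standard error 0.89, FDR = 0.946 in edgeR), and was the only member with an unadjusted p under 0.05, against 1.35% of all genes higher. Without replicate 2 of the normal WT mice, the value of Uqcrc1 was 1.57. Atp5g2 was the only negative member (−1.28). The median was 0.24 without replicate 2 of the normal WT mice, 1.45 without replicate 1 and 0.28 with the brown adipocyte covariate.

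Genes around the respiratory chain were counted in the same comparisons, and none of them was called. Of 36 tested assembly factors of complexes II to V, 14 (38.9%) were higher in every KO than in every WT mouse after ischemia, against 4.74% of all genes, and 8 (22.2%) had higher values at an unadjusted p under 0.05, against 2.88% of all genes. The median log2 fold change was 0.61. The list was drawn up with earlier results of these mice known and is not independent evidence of a direction. Among them were Coa5 (1.33, standard error 0.49), Cox10 (1.33, standard error 0.52) and Sco1 (0.74, standard error 0.34), which serve complex IV in assembly, haem synthesis and copper delivery, and Tmem70 (0.91, standard error 0.36), which serves ATP synthase. The FDR of each was 0.715 in edgeR. The paper lists Cox10, Sco1 and Tmem70 in its trend of genes lowered by ischemia in WT mice and recovered in KO mice. That trend was picked from these same data, so the direction of Cox10, Sco1 and Tmem70 here is not separate support. Coa5, for example, was at 45.001, 42.5 and 45.4 CPM in WT mice and 61.4, 141, 140.4 and 103 CPM in KO mice, so KO mouse 1 was again the lowest of its group. For ischemia minus normal in WT mice, 10 of the 36 (27.8%) were lower at an unadjusted p under 0.05, against 5.47% of all genes. The median of the list was −0.87 there. The summed level of the list was 448, 1758 and 977 CPM in normal and 554, 629 and 651 CPM in ischemic WT mice. Normal replicate 1 was thus below every ischemic WT mouse, and replicate 2 was the highest. How far the values of the list depend on single mice or on the brown adipocyte marker level was not tested. In the interaction, 0 of the 36 had an unadjusted p under 0.05, against 4.32% of all genes.

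Cyc1, the haem subunit of complex III that the symbol rule left out, had a log2 fold change of 1.07 after ischemia between KO and WT mice and −1.27 for ischemia minus normal in WT mice. Cycs, cytochrome c, had 1.44 and −1.09. Neither passed an unadjusted p of 0.05 in these comparisons, and over the 7 tested genes of this list the medians were 0.86 and −0.999.

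The 6 subunit genes of these complexes in mitochondrial DNA had a median log2 fold change of −0.80 for ischemia minus normal in KO mice, where that of the nuclear members was 0.04. In 4 of the 6 (CYTB, COX2, ATP6 and ATP8), every ischemic mouse lay below every normal mouse, against 5.6% of all genes. ATP6, a subunit of the proton channel of ATP synthase, was at 152, 157, 111 and 177 CPM under normal conditions and 68.6, 76.6, 98.0 and 66.9 CPM after ischemia (log2 fold change −0.94, standard error 0.37, FDR = 0.295 in edgeR). The 6 genes together were at 92726 to 128313 CPM and 69366 to 89340 CPM in these KO mice, so ATP6 held a very small part of their reads. In WT mice the median was −0.82, and between KO and WT mice after ischemia it was 0.06. Whether the nuclear and the mitochondrial genes differ in their change was not tested.

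Among 13 regulators of these genes, 5 had an unadjusted p under 0.05 and were higher in KO than in WT mice after ischemia, and 5 were higher in every KO mouse (38.5% for both counts, against 2.88% and 4.74% of all genes). This list too was drawn up with earlier results of these mice known and is not independent evidence of a direction. Tfb2m, for 1, is in the paper's trend of genes lowered by ischemia in WT mice and recovered in KO mice. In WT mice, 2 of the 13 were higher and 4 lower after ischemia at an unadjusted p under 0.05. These were 15.4% and 30.8%, against 4.1% and 5.47% of all genes. Esrrg, an estrogen-related receptor, was at 0.395, 0.578 and 0.718 CPM in WT and 2.82, 5.07, 8.51 and 6.42 CPM in KO mice after ischemia, a log2 fold change of 3.33 (standard error 1.17, FDR = 0.715 in edgeR). Esrra, a related receptor, had a log2 fold change of 1.22. Ppargc1a, the gene for PGC-1alpha, was at 7.25, 23.8, 15.2 and 39.1 CPM in KO mice under normal conditions and 73.9, 213, 390.2 and 121 CPM after ischemia, with no overlap (log2 fold change 3.23, standard error 1.02, FDR = 0.197 in edgeR). In the same comparison the median of the members was 0.04. Ppargc1a is also on the brown adipocyte list. Its interaction was 2.05 (standard error 1.44, FDR = 0.946 in edgeR), so a rise in KO mice only was not shown. Nrf1, Gabpa and Yy1 did not have an unadjusted p under 0.05 between KO and WT mice after ischemia.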

How the data were processed

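RNA-seq libraries of the SMA from 14 mice in 4 groups were used, mapped to groups by the GEO labels. The authors deposited whole-number counts of reads per gene, not normalised. HISAT2 2.0.4 and mm10 are given in the submitters' processing notes, and the counting program, annotation and strand setting are not given in the sources used here. Total counts were 25612646 to 40255851 per mouse (median 33506452), which limits genes such as Atp5g2 and Cox6a2 most. Labels of replicates do not state more than separate samples, so p-values measure the spread between these samples.

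Counts were scaled by TMM, filtered by filterByExpr over the 4 groups and fitted over all 14 mice with edgeR 4.0.16 in R 4.3.3, by the quasi-likelihood test with Benjamini-Hochberg adjustment over 17693 genes. Genes with an FDR under 0.05 whose fold change exceeded 1.5 were called. The exact permutation test was given only for named members whose groups do not overlap. That choice puts its p at or near the smallest possible, so it is not separate support. Lengths were taken from GENCODE M21 (51 of 54 symbols matched) and promoters from RefSeq. DESeq2 1.42.0, limma 3.58.1, other scalings and filters, left-out mice and a replicate block were the alternatives, and the script was tested on simulated data. The members and gene lists were chosen with earlier results of these data known. Named members were the core subunits Sdha, Sdhb, Uqcrc1, Uqcrfs1, Cox4i1, Cox5a, Atp5a1 and Atp5b, the isoform pairs, in each comparison the members called and in each complex the one with the smallest p and the one with the largest change, and the highest and lowest per kb. Other members and the examples from the other lists were named after their values were seen. The replicate numbers belong to different mice, and no source says that a number marks a shared batch or day. Correlations of deviations between mice of the same number were 0.120 to 0.192 for the 3 pairs of ischemic and normal WT mice, all over 0.1, and in each other comparison at least 1 pair was below 0.1 (−0.146 to 0.316 over all 19 pairs).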

Additional observations from a re-analysis of the deposited data

Results flagged for a closer look

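In a Dixon test of each member's level in the groups of 4 mice, a single mouse stood far from the others in 3 of 90 groups, and chance marks about 1 in 20. Atp5g1 was at 119 CPM in KO mouse 4 after ischemia, where the next mouse was at 26.3 CPM. Cox6a2 was at 11.5 CPM in KO mouse 4 under normal conditions (next 0.0281 CPM) and at 232 CPM in KO mouse 4 after ischemia (next 25.8 CPM). Both libraries held Myh6, at 203 and 3529 CPM, and its part in these values was not tested beyond leaving the libraries out.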

How the results depend on the processing

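With edgeR, no member was called under any alternative, and DESeq2 called 1 (Atp5g1, ischemia against normal in KO mice). The replicate numbers met the check of pairing for ischemia in WT mice only, and 8 of 14 mice correlated best with their own number. With the replicate block the medians of the members were −0.15 (KO against WT, normal), 0.54 (KO against WT, ischemia, 0.83 without the block), −0.71 (ischemia, WT mice, −0.96 without it), 0.04 (ischemia, KO mice) and 0.74 (interaction), and the block changed no call. Leaving out single mice gave medians of −0.57 to 0.68, 0.60 to 1.05, −1.42 to −0.16, −0.16 to 0.33 and 0.24 to 1.45. The brown adipocyte covariate and the exclusion of libraries with Myh6 were added after seeing the data. After ischemia that exclusion leaves only WT mice 2 and 3 and KO mice 1 and 2. The causes of the sign changes given here were not tested.

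For KO against WT under normal conditions, values with single mice left out were −0.55 to 0.65 for Sdha, −0.74 to 0.66 for Sdhb, −0.69 to 0.83 for Uqcrc1, −0.48 to 1.04 for Uqcrfs1, −0.70 to 0.59 for Cox4i1, −0.72 to 0.84 for Cox5a, −0.51 to 0.74 for Atp5a1, −0.66 to 0.81 for Atp5b, −0.57 to 0.53 for Uqcrb and −1.996 to 9.60 for Cox6a2. limma-trend gave 0.22 for Sdha, 0.087 for Sdhb, 0.10 for Uqcrc1, 0.011 for Cox4i1, 0.26 for Cox5a, 0.21 for Atp5a1, 0.24 for Atp5b and 0.00152 for Uqcrb. Uqcrfs1 was −0.49 with the covariate and −0.37 without the Myh6 libraries.

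For KO against WT after ischemia, the covariate gave −0.25 for the median, −0.033 for Sdha, −0.25 for Sdhb, −0.32 for Uqcrfs1, −0.40 for Cox4i1, −0.65 for Cox5a, −0.16 for Atp5a1 and −0.29 for Atp5b, and Atp5g1 was −0.032 without the Myh6 libraries. For ischemia in WT mice, Cox6a2 ran from −3.73 to 6.57.

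For ischemia in KO mice, values with single mice left out were −0.24 to 0.40 for Sdha, −0.045 to 0.51 for Sdhb, −0.27 to 0.35 for Uqcrfs1, −0.14 to 0.38 for Cox4i1, −0.33 to 0.41 for Cox5a, −0.11 to 0.55 for Atp5a1 and −0.15 to 0.50 for Atp5b. limma-trend gave 0.00462 for Sdha and 0.00495 for Uqcrfs1, and a fit of only these groups gave 0.013 for Uqcrfs1 and 0.034 for Cox5a. Cox5a was 0.00977 without the mitochondrial genes and 0.017 with at least 10 counts in every mouse. The covariate gave 0.030 for Sdha, 0.047 for Uqcrfs1 and 0.072 for Cox5a, and Sdha was 0.20 without the Myh6 libraries.

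Without division by length, mean shares were 41.2% and 43.5% for Cox7a1 and 31.8% and 32.2% for Cox8b, in KO mice under normal conditions and after ischemia. Mean shares of Atp5g1 and Atp5g3 were then 10.6% and 88.5% (WT, normal), 11.4% and 86.8% (KO, normal), 15.2% and 83.6% (WT, ischemia) and 19.5% and 79.8% (KO, ischemia).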
